A study of Mus musculus with 8 samples.

Results

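Wnt4 and 9 other genes of the Wnt signalling pathway were followed in adult mouse testis: Wnt4, Rspo1, Ctnnb1, Axin2, Sfrp1, Dkk3, Dkkl1, Znrf3, Fzd1 and Lgr4. Wnt4 was chosen for its large rise in Iqch mutants in these same libraries, so its values are a description with no test. The other 9 were chosen as pathway genes around it. Of the 10 genes, 8 were among the 17127 genes of the expression table, and Rspo1 and Dkk3 are not analysed here. The libraries were made from whole testes of 4-month-old mice: wild-type mice 1 to 4, and Iqch-/- mutants 1, 2 and 4, homozygous for small frameshifting deletions in the Iqch gene made with CRISPR-Cas9 in B6CBAF1 zygotes. Mutant 3 is not analysed here. The study made several edited lines and shows RNA-seq coverage of Iqch for the line mu7. The labels do not give the line of each library. IQCH is a protein with a calmodulin-binding IQ motif, made mainly in the germ cells of the seminiferous tubules.

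Wnt proteins are secreted, lipid-modified signals that bind Frizzled receptors and LRP co-receptors on nearby cells. In the canonical branch, receptor binding stops a cytoplasmic destruction complex from marking β-catenin for degradation, and β-catenin then enters the nucleus and switches on target genes with TCF/LEF factors. R-spondins and their LGR receptors raise the signal by removing ZNRF3 and RNF43, which otherwise clear Frizzled from the cell surface. In the fetal gonad, Wnt4 and Rspo1 are best known for directing the ovarian fate, which the testis pathway of Sox9 and Fgf9 opposes.

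Levels are given in CPM, a gene's read count scaled to a library total of 1000000. The libraries held 32064384 to 37551057 reads counted in the measured genes when the smallest step between values is taken as 1 read. Iqch itself measured 208 ± 11.3 CPM (SD) in the 4 wild-type libraries and 67.3 ± 2.25 in the 3 mutants, with n = 4 and n = 3 also for every mean ± SD below. This was a log2 fold change of -1.63 (SE 0.05, FDR 1.9e-10, limma). A gene is called higher or lower here when the FDR of limma over all 17126 tested genes was below 0.01. The median log2 fold change over all genes was 0.12, and -0.01 after scaling the libraries by median-of-ratios size factors, so small changes are given with both scalings where their calls differ.

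Of the 7 measured genes chosen with Wnt4, 5 were called higher (Lgr4, Fzd1, Sfrp1, Ctnnb1 and Axin2), where 36.3% of all tested genes were. Dkkl1 was called lower, as were 14.2% of all genes, and Znrf3 was not called. Fzd1 and Sfrp1 rose by more than 2-fold, as did 8.79% of all genes. For the 5 higher genes every mutant library lay above every wild-type library, which held for 42.8% of all genes, and for Dkkl1 every mutant library lay below, which held for 19.5%. With size factors 4 of the 7 were higher and 2 lower, where 27.0% and 25.1% of all genes were. The median log2 fold change of the 7 genes was 0.58.

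Wnt4 (ENSMUSG00000036856, chr4:137004373-137027037, plus strand, GRCm39) encodes a Wnt ligand. Its CPM were 0.419, 0.0874, 0.365 and 0.24 in wild-type libraries 1 to 4, and 7.79, 9.61 and 11.9 in mutants 1, 2 and 4. Wild-type testis was therefore close to the detection limit, with 14, 3, 12 and 9 reads, while the mutants had 271, 308 and 388. The lowest mutant stood 18.6-fold above the highest wild-type library and the highest mutant 136-fold above the lowest. Pooled over libraries, the 967 mutant reads and 38 wild-type reads gave a ratio of 35.4 per read counted in the measured genes. The fitted log2 fold change on log2(CPM + 0.1) was 4.79, the 5th largest rise of the 17126 tested genes. It fell to 3.06 with a pseudocount of 1, since so low a wild-type level leans on the constant added. Wnt4 passed the minimum of 2.2 CPM only through the mutants, as did 644 genes in all. In whole tissue, a change in the number of cells of a type and a change in RNA per cell cannot be told apart.

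**Figure D1:**
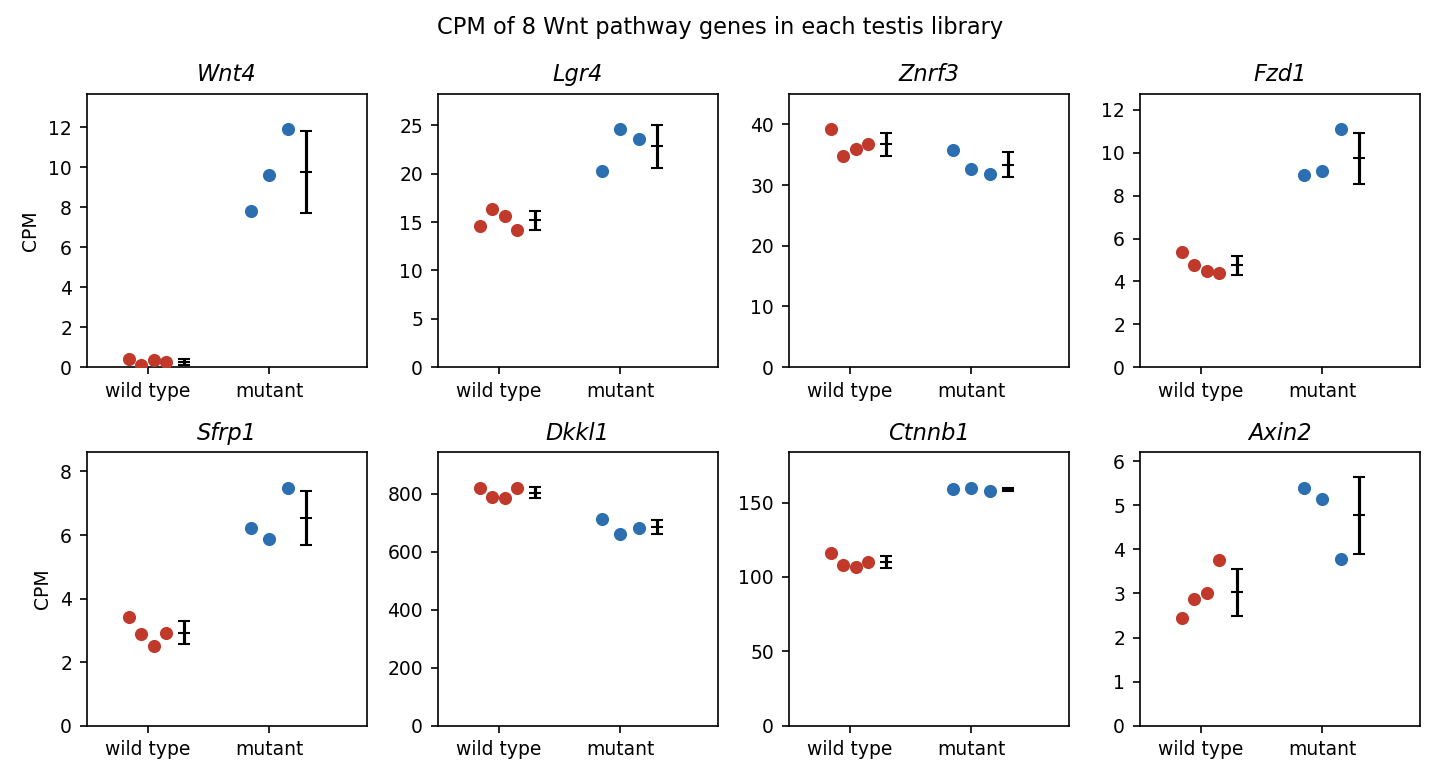
CPM (vertical axes, linear, from 0, each gene on its own scale) of 8 Wnt pathway genes in wild-type (red, n = 4) and Iqch mutant (blue, n = 3) testis libraries, in the order of the library numbers, with the mean and SD in black. Wnt4 goes from at most 0.419 CPM to at least 7.79, 5 other genes also lie higher in every mutant library, Dkkl1 lies lower in every mutant library, and Znrf3 overlaps.

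The windows of 250 bases before the annotated start (GENCODE M39, canonical transcript) are shown for Wnt4 and Sfrp1, which were higher in mutants, and for Dkkl1, which was lower. None of these 3 windows holds an annotated exon, and the windows of Znrf3, Fzd1, Ctnnb1 and Axin2, which do, are not shown. The Lgr4 window holds no annotated exon and is also not shown. Each reads 5′ to 3′ on the gene's own strand in GRCm39: Wnt4 at chr4:137004123-137004372 (plus), Sfrp1 at chr8:23901013-23901262 (plus) and Dkkl1 at chr7:44862505-44862754 (minus). Capitals mark the TCF/LEF core CTTTGA or its reverse complement TCAAAG.
Wnt4: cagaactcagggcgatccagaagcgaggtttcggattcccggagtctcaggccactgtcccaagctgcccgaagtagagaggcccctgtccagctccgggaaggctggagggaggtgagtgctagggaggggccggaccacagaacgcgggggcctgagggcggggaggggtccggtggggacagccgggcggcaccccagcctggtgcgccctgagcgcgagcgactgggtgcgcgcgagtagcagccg
Sfrp1: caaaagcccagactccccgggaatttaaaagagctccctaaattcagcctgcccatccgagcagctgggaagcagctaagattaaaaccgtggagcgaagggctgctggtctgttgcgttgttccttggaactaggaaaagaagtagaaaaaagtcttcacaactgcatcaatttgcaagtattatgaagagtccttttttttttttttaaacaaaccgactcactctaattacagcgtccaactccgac
Dkkl1: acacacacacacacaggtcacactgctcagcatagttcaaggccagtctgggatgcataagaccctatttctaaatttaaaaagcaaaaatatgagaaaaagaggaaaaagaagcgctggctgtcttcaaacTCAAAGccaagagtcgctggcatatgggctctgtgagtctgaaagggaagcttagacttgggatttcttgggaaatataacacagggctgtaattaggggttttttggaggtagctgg
The core occurred on either strand in 1673 of 13784 windows of tested protein-coding genes (12.1%) and in 12 of the 89 measured genes of the wider pathway list (13.5%). Among the 8 genes it was found in Dkkl1, 118 bases before the start, and in Axin2, 22 bases before. The Wnt4 window, with a GC content of 70.4% against a median of 56%, held neither this core, nor the NR5A1 element AAGGTCA or its reverse complement (3.47% of windows), nor the cyclic AMP response element TGACGTCA (2.03%). Dkkl1, Axin2 and Ctnnb1 each have more than 1 annotated start, and only the canonical one was searched. The windows of Dkkl1, Axin2 and Ctnnb1 lie inside the annotated span of the gene.

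The other genes were read within a list of 124 Wnt pathway genes, 89 of them measured. Of the 89, 43 were called higher, 6 lower and 40 neither, with a median log2 fold change of 0.27. The share called was 55.1%, against 50.4% of all tested genes, and the share called higher 48.3% against 36.3%. These counts hold Wnt4, and 86 of the 89 genes reached 2.2 CPM in 2 or more libraries of each group, with 42 higher and 5 lower. The other 3 are Wnt4, which reached it only in mutants, and Wnt1 and Wnt7a, which reached it only in wild-type libraries. Of the 49 calls, 87.8% were upward, against 71.9% of the 8640 calls over all genes. With size factors the list had 33 higher and 19 lower, so that 63.5% of its 52 calls were upward against 51.9% of the 8921 calls over all genes, and its median was 0.13. The 9 list genes with a called change above 2-fold, Wnt4 included, were all higher in mutants, where 8.79% of all tested genes were called more than 2-fold higher and 1.22% more than 2-fold lower.

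Among the Wnt ligands, 10 of 19 were measured, and 3 were higher (Wnt4, Wnt5a and Wnt6), 3 lower (Wnt1, Wnt3 and Wnt3a) and 4 not called. Of the 7 ligands that reached 2.2 CPM in 2 or more libraries of each group, 2 were higher and 2 lower. Over all tested genes 36.3% were called higher and 14.2% lower. Wnt6 went from 24, 20.7, 19.8 and 22.3 CPM in wild-type libraries to 66.6, 56.8 and 57.5 in mutants, a log2 fold change of 1.47 (SE 0.08, FDR 1.4e-08). Wnt5a, a ligand best known for the non-canonical branches, went from 2.9, 1.57, 2.83 and 2.34 CPM to 6.49, 7.27 and 6.51, a log2 fold change of 1.48 (SE 0.19, FDR 2.0e-05). For each of these genes the lowest mutant library lay above the highest wild-type library. Wnt3 lay between 44.7 and 55.1 CPM in wild-type libraries and between 32.4 and 37.9 in mutants, a log2 fold change of -0.51 (SE 0.08, FDR 1.1e-04). Wnt3a lay between 3.87 and 4.63 CPM and between 2.15 and 2.61, with a log2 fold change of -0.82 (SE 0.13, FDR 1.6e-04). Wnt3a is a ligand widely used to activate β-catenin signalling in culture, and neither Wnt3 nor Wnt3a had overlapping groups. Wnt1 went from 2.92 ± 0.868 to 1.48 ± 0.188 CPM, and its log2 fold change of -0.89 (FDR 0.00397) was no longer called without mutant 2 or 4 or wild type 2 or 4 (-0.90 to -0.73, FDR 0.0107 to 0.0173).

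Levels of different ligands were compared as CPM per kilobase of the canonical transcript. In wild-type testis the order was Wnt3 (15.7 ± 1.52), Wnt6 (8.05 ± 0.686), Wnt5b (2.66 ± 0.35), Wnt3a (1.55 ± 0.127), Wnt1 (1.23 ± 0.365), Wnt2 (0.885 ± 0.0499), Wnt7a (0.684 ± 0.0626), Wnt2b (0.524 ± 0.0892), Wnt5a (0.334 ± 0.0849) and Wnt4 (0.0601 ± 0.0319). The library ranges of Wnt3a and Wnt1, of Wnt1 and Wnt2, and of Wnt7a and Wnt2b overlapped, and the other neighbours in this order did not. Wnt4 was thus the lowest of the 10 measured ligands. In mutants Wnt6 came first (22.4 ± 2.03), then Wnt3 (11 ± 0.909), Wnt5b (3.27 ± 0.359) and Wnt4 (2.11 ± 0.446), whose ranges did not overlap. The other 6 ligands lay between 0.57 ± 0.0717 (Wnt7a) and 0.936 ± 0.0616 (Wnt5a) per kilobase, each overlapping its neighbour.

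**Figure D2:**
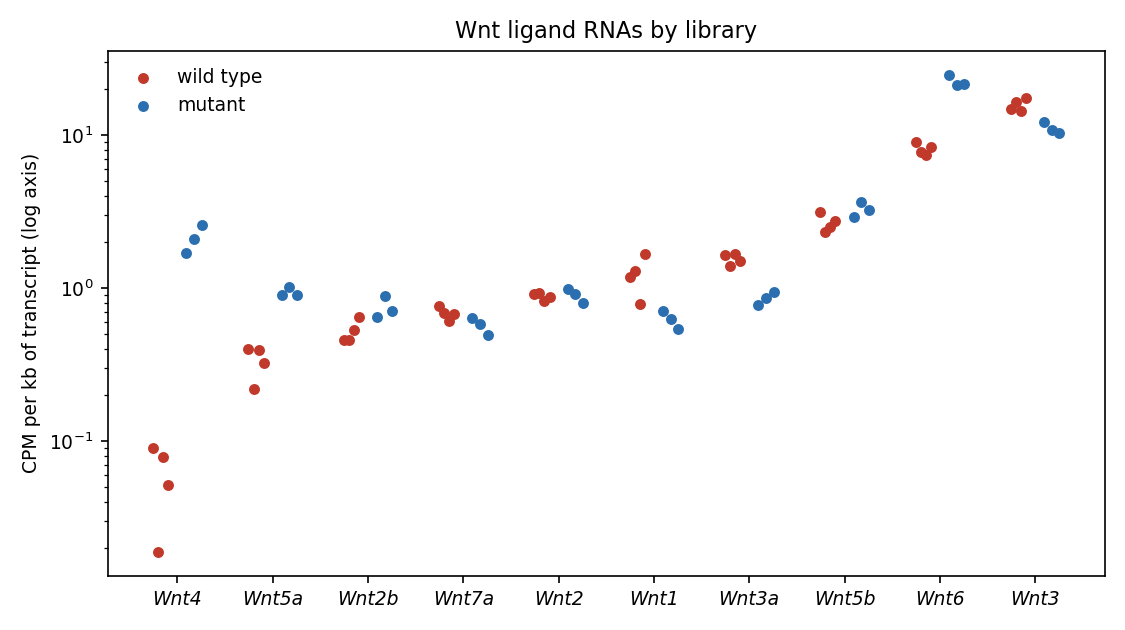
CPM per kilobase of canonical transcript (vertical axis, log scale) of the 10 measured Wnt ligands in each wild-type (red, n = 4) and mutant (blue, n = 3) library, ordered by the wild-type mean. Wnt4 is the lowest ligand in wild-type testis at 0.0601 and stands 4th in mutants at 2.11, while Wnt3, Wnt3a and Wnt1 are lower in mutants.

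Genes that modify, sort and release Wnt ligands were all measured and all 5 were called higher, 4 of them also with size factors. Over all tested genes 36.3% were called higher, and 27.0% with size factors. Wls, the carrier that takes Wnt proteins to the cell surface, went from 3.68, 3.67, 4.23 and 3.83 CPM to 10.9, 12.1 and 12.7, a log2 fold change of 1.60 (SE 0.10, FDR 6.4e-08). Porcn, the enzyme that attaches the lipid, went from 7.38 ± 0.513 to 10.2 ± 0.779 CPM (log2 fold change 0.45, FDR 0.00115). Tmed2, a cargo receptor of the early secretory pathway, had a log2 fold change of 0.56 (FDR 9.7e-05), and Vps35, a subunit of the retromer that recycles Wls, one of 0.39 (FDR 1.2e-04). Tmed5, at 0.37, was not called with size factors (0.24, FDR 0.0266) or without mutant 2 or 4 (0.34 to 0.35, FDR 0.012 to 0.0145).

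In the R-spondin system 5 of 9 genes were measured, none of them an R-spondin. Lgr4 (ENSMUSG00000050199, chr2:109747839-109844609, plus), an R-spondin receptor, had 14.6, 16.3, 15.6 and 14.2 CPM in wild-type libraries and 20.3, 24.6 and 23.6 in mutants. The groups did not overlap, and the log2 fold change was 0.58 (SE 0.08, FDR 5.1e-05). Its relative Lgr5, also a Wnt target and stem cell marker in other tissues, fell from 11.3 ± 0.837 to 8.11 ± 0.625 CPM (log2 fold change -0.48, FDR 6.4e-04). Znrf3 (ENSMUSG00000041961, chr11:5226324-5394939, minus), the ubiquitin ligase that removes Frizzled receptors, had 39.2, 34.8, 36 and 36.8 CPM in wild-type libraries and 35.7, 32.6 and 31.8 in mutants. These groups overlapped, since mutant 1 lay above wild type 2, and the log2 fold change of -0.14 (SE 0.06, FDR 0.0708) was not called. With size factors it was -0.27 and called lower (FDR 0.00277). Rnf43, which does the same work as Znrf3, was at 3.38 and 3.95 CPM and not called. The 5 genes of this system therefore gave 1 call upward and 1 downward, and 1 upward and 3 downward with size factors. Without size factors 40% of them were called, against 50.4% of all tested genes. With size factors 27.0% of all tested genes were called higher and 25.1% lower.

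Of 16 receptors and co-receptors 13 were measured, of which 8 were higher, 0 lower and 5 not called in limma with either scaling. The share higher was 61.5%, against 36.3% of all tested genes, or 27.0% with size factors. Fzd1 (ENSMUSG00000044674, chr5:4803839-4808035, minus), a Frizzled receptor, had 5.36, 4.78, 4.47 and 4.37 CPM in wild-type libraries and 8.96, 9.14 and 11.1 in mutants. Every mutant lay above every wild-type library, with a log2 fold change of 1.02 (SE 0.11, FDR 7.7e-06). Fzd7 (4.24 ± 0.427 to 9.58 ± 0.972 CPM) and Fzd5 (3.77 ± 0.443 to 7.74 ± 0.619) changed by as much, with log2 fold changes of 1.16 and 1.02 (FDR 2.8e-06 and 1.1e-05). Fzd8 rose from 2.25 ± 0.191 to 3.61 ± 0.344 CPM (0.66, FDR 0.00151), and was not called without mutant 4 (0.58, FDR 0.0111). The remaining calls were Ryk (0.64), Ror2 (0.57), the co-receptor Lrp6 (0.45) and Fzd3 (0.42). Lrp5, the other co-receptor, was at 59 and 61.8 CPM and was not called.

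Of 19 secreted or surface inhibitors 6 were measured, with 3 higher, 1 lower and 2 not called. The 50% called higher stand beside 36.3% of all tested genes. Sfrp1 (ENSMUSG00000031548, chr8:23901263-23939648, plus), a secreted Frizzled-like protein that binds Wnt ligands, had 3.41, 2.88, 2.5 and 2.93 CPM in wild-type libraries and 6.23, 5.86 and 7.49 in mutants. The groups were separate, and the log2 fold change was 1.13 (SE 0.14, FDR 1.7e-05). Frzb, of the same family, rose from 11.4 ± 0.552 to 21.3 ± 1.89 CPM (0.89, FDR 1.0e-06). Kremen1, a Dickkopf receptor, was called at 0.27 (FDR 0.00295), but not with size factors (0.13, FDR 0.0898) or without mutant 1 or 2 (0.25 and 0.27, FDR 0.0134 and 0.0102).

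Dkkl1 (ENSMUSG00000030792, chr7:44856027-44865161, minus) is related to the Dickkopf inhibitors by sequence and is known as a protein of the developing spermatid acrosome rather than as a Wnt inhibitor. It had 821, 790, 786 and 820 CPM in wild-type libraries and 712, 662 and 682 in mutants. All mutants were lower, with a log2 fold change of -0.23 (SE 0.04, FDR 2.0e-04) and of -0.37 with size factors. Per kilobase it was the most abundant of the 8 genes in wild-type testis (351 ± 8.23) and in mutants (299 ± 11). Ctnnb1 followed at 30.3 ± 1.11 and 43.7 ± 0.275 per kilobase, then Znrf3, Lgr4 and Fzd1. At the low end of wild-type testis the ranges of Axin2 (0.683 ± 0.122) and Sfrp1 (0.633 ± 0.0807) overlapped, with Wnt4 below them. In mutants Wnt4 overlapped Fzd1 (2.32 ± 0.283) and lay above Sfrp1 (1.41 ± 0.185) and Axin2 (1.08 ± 0.197).

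Inside the cell, 23 of 24 transducers and destruction complex genes were measured, with 10 higher, 0 lower and 13 not called, but 7 higher and 8 lower with size factors. The 43.5% called higher stand beside 36.3% of all tested genes called higher and 50.4% called in either direction. With size factors 27.0% of all tested genes were higher and 25.1% lower. Ctnnb1 (ENSMUSG00000006932, chr9:120757422-120789579, plus), which encodes β-catenin, had 116, 108, 107 and 110 CPM in wild-type libraries and 159, 160 and 158 in mutants. The 3 mutants differed by less than the wild-type libraries did, and the log2 fold change was 0.53 (SE 0.04, FDR 3.7e-07) or 0.40 with size factors. Its annotated span overlaps Ulk4 and 4930593C16Rik on the other strand, and the strand setting of the counting is not given in the sources used here, so reads of the overlap cannot be assigned with certainty. Ulk4 had a log2 fold change of -0.15 (FDR 0.00448).

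Axin2 (ENSMUSG00000000142, chr11:108811169-108841609, plus) encodes a scaffold of the destruction complex and is itself the most widely used target gene of β-catenin. It had 2.45, 2.88, 3.01 and 3.75 CPM in wild-type libraries and 5.4, 5.15 and 3.78 in mutants. Mutant 4 was close to wild type 4, though the groups did not overlap. The log2 fold change was 0.64 (SE 0.17, FDR 0.00539). The call was lost with size factors (0.51, FDR 0.0192), and without mutant 1 or 2 or wild type 1, 2 or 3 (0.54 to 0.64, FDR 0.011 to 0.0301). Its relative Axin1 was called at 0.27 (FDR 9.5e-04), but not with size factors (0.14, FDR 0.0436). The largest changes of this role were those of Dvl3 (0.81, FDR 2.2e-06), which relays the Frizzled signal, Amer1 (0.75, FDR 1.2e-04), which binds the destruction complex, and Tnks2 (0.70, FDR 1.1e-06), an enzyme that marks axin for degradation. Gsk3b, the kinase that phosphorylates β-catenin, was at 132 and 124 CPM and not called (-0.08), and was called lower with size factors (-0.22, FDR 0.00154).

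All 16 nuclear factors were measured, with 8 higher, 1 lower and 7 not called (6 higher and 3 lower with size factors). Thus 50% were called higher, against 36.3% of all tested genes. The size-factor counts stand beside 27.0% of all tested genes called higher and 25.1% lower. Tle2, a Groucho-type co-repressor that binds TCF/LEF factors, had the largest change of the list after Wnt4. It went from 5.56, 5.42, 5.05 and 5.91 CPM to 25.7, 28.5 and 29.2, a log2 fold change of 2.32 (SE 0.09, FDR 1.2e-09). Ctnnbip1, an inhibitor that keeps β-catenin from TCF factors, rose from 4.18 ± 0.618 to 7.57 ± 0.287 CPM (0.85, FDR 7.1e-05). Bcl9l, a co-activator of β-catenin, rose by 0.58 (FDR 4.2e-05) and Chd8, a chromatin remodeller, by 0.55 (FDR 6.1e-07). Calls upward were therefore made for genes that restrain and for genes that assist β-catenin. The 1 gene called lower was Lef1, at 38.6 and 33.1 CPM (-0.22, FDR 0.0087), which was not called without mutant 1 or 4 or wild type 1, 2 or 4 (-0.24 to -0.18, FDR 0.0139 to 0.0465).

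In the planar polarity branch, which orients cells without β-catenin, 9 of 10 genes were measured. Of these, 4 were higher, 0 lower and 5 not called (2 higher and 1 lower with size factors). The 44.4% called higher compare with 36.3% of all tested genes. With size factors 27.0% of all tested genes were called higher and 25.1% lower. Daam2, which links Dishevelled to the actin skeleton, went from 120 ± 7.2 to 188 ± 2.66 CPM (0.65, FDR 2.7e-07), and Prickle1 from 10.9 ± 0.939 to 17.2 ± 1.34 (0.65, FDR 4.1e-05). Vangl2, at 0.61 (FDR 0.00434), was not called with size factors (0.47, FDR 0.0178) or without mutant 1 or 4 or wild type 1 or 4 (0.53 to 0.56, FDR 0.0114 to 0.0236). Daam1, at 0.26 (FDR 6.5e-04), was not called with size factors (0.13, FDR 0.0376).

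Of 15 genes known as β-catenin targets in many tissues 10 were measured. Axin2, Ccnd1 and Tcf7 were called higher, Lgr5 and Lef1 lower, and 5 were not called, so that 50% were called, as were 50.4% of all tested genes. Their median log2 fold change was 0.08, below the median of 0.12 over all genes. With size factors 0 of the 10 were called higher by limma and 3 lower (Lgr5, Lef1 and Znrf3). Over all tested genes 27.0% were then called higher and 25.1% lower. Ccnd1, a cyclin that drives entry into the cell cycle, was called at 0.38 (FDR 0.00964), and this call was lost on leaving out any library but wild type 3 (0.30 to 0.42, FDR 0.0103 to 0.0385). Tcf7, at 0.35 (FDR 0.00441), was not called without mutant 1 or wild type 2 (0.28 and 0.31, FDR 0.0269 and 0.0154). Lgr5 kept its call in each of these fits.

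**Figure D3:**
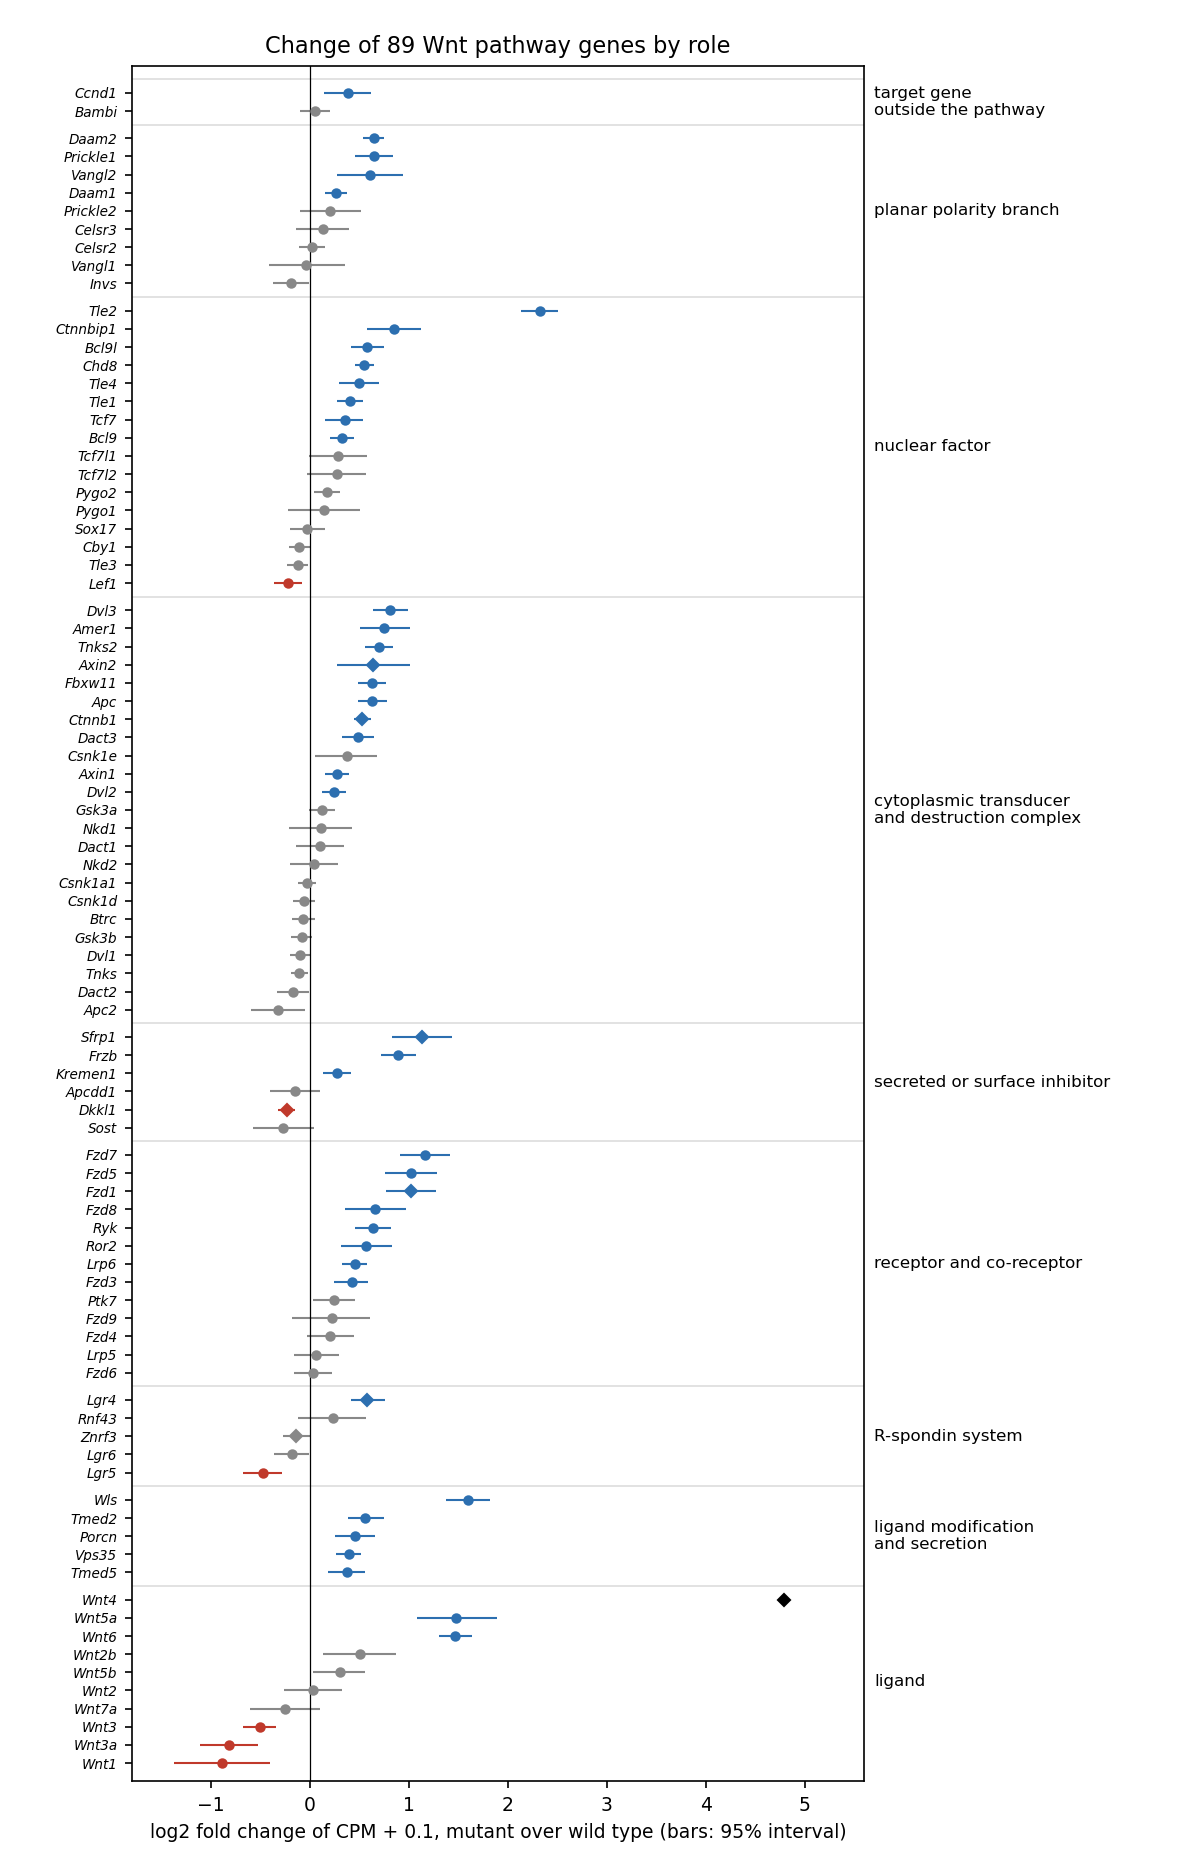
Log2 fold change, mutant (n = 3) over wild type (n = 4) on log2(CPM + 0.1), of the 89 measured Wnt pathway genes, grouped by role, with 95% intervals from limma. Blue genes were called higher, red lower and grey not called, diamonds mark the genes chosen with Wnt4, and Wnt4 itself (black, 4.79) has no interval because it was chosen for its rise. The 5 secretion genes and 8 of 13 receptors are blue, while ligands lie on either side of 0. Of all tested genes 36.3% were called higher.

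Marker genes of testis cell types moved in the same libraries. All 9 measured Sertoli cell markers and all 8 macrophage markers were called higher, as were 7 of 8 Leydig cell markers. Of all tested genes 36.3% were called higher and 14.2% lower. These shares were 27.0% and 25.1% with size factors. With size factors the Sertoli markers Sox9 (0.22) and Amh (0.40) were not called. Summed Leydig markers lay between 1132 and 1345 CPM in wild-type libraries and between 4709 and 4853 in mutants (log2 ratio 1.98). Insl3, at 438 ± 15.7 CPM in wild type and 2941 ± 37.6 in mutants, made up most of the mutant sum. Star was the Leydig marker not called (0.24). Sertoli sums, made up mostly of Clu (851 ± 39.3 and 1816 ± 56.9 CPM), were 1128 to 1212 CPM against 2322 to 2478 in mutants (1.02). Macrophage sums were 92.4 to 103 CPM against 285 to 325 (1.66). All 6 elongating spermatid markers were lower, with sums of 21418 to 22655 CPM in wild-type libraries and 13570 to 15635 in mutants (-0.60). Fibroblast sums were 102 to 126 CPM against 158 to 181 (0.62, with 3 of 6 markers higher and 1 lower). Endothelial sums were 30.6 to 34.5 CPM against 44 to 46.4 (0.45), with 2 of 5 markers higher (Cdh5 and Kdr). Pecam1 (0.63), Vwf (-0.21) and Tek (-0.29) were not called. Vwf was called lower with size factors (-0.35). Peritubular myoid sums, made up mostly of Actg2, had a log2 ratio of -0.18, with 1 of 5 markers higher (Myl9) and 1 lower (Actg2). Spermatogonial sums, made up mostly of Dmrtb1 at 561 ± 47.5 and 552 ± 18.3 CPM, had a ratio of 0.11. Of their 7 markers 3 were higher, Kit (21.7 ± 2.49 to 62.2 ± 11.1 CPM), Zbtb16 and Uchl1. Zbtb16 and Uchl1 were not called with size factors. Spermatocyte sums, made up mostly of Ldhc (3574 ± 69.6 and 2956 ± 34 CPM), had a ratio of -0.21. Of their 7 markers 1 was higher (Spo11) and 1 lower (Ldhc). Spo11 was not called with size factors (0.14), while Sycp1 (-0.35) and Piwil1 (-0.20) were then called lower beside Ldhc. Round spermatid sums also had a log2 ratio of -0.21, with 4 of 6 markers lower. The other round spermatid markers, Spaca1 (-0.28) and Catsper1 (-0.27), were called lower with size factors only. The part of these cell type differences in the Wnt pathway changes was not tested.

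Tissue next to the testis was also checked. Of 7 markers of rete and efferent duct epithelium 2 were measured, with sums of 7.76 to 10.1 CPM and 8.94 to 10.4 CPM (log2 ratio 0.08). Of 8 epididymis markers 1 was measured, Rnase10, at 1.77 to 2.18 CPM in wild-type libraries and 2.98 to 4.51 in mutants (0.95). It was called higher, as were 36.3% of all tested genes. Rnase10 reached 2.2 CPM only in mutants, so it entered the test through the group in which it is high. Red blood cell markers were at 17 to 29.1 CPM and 17.2 to 31 CPM (0.12).

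**Figure D4:**
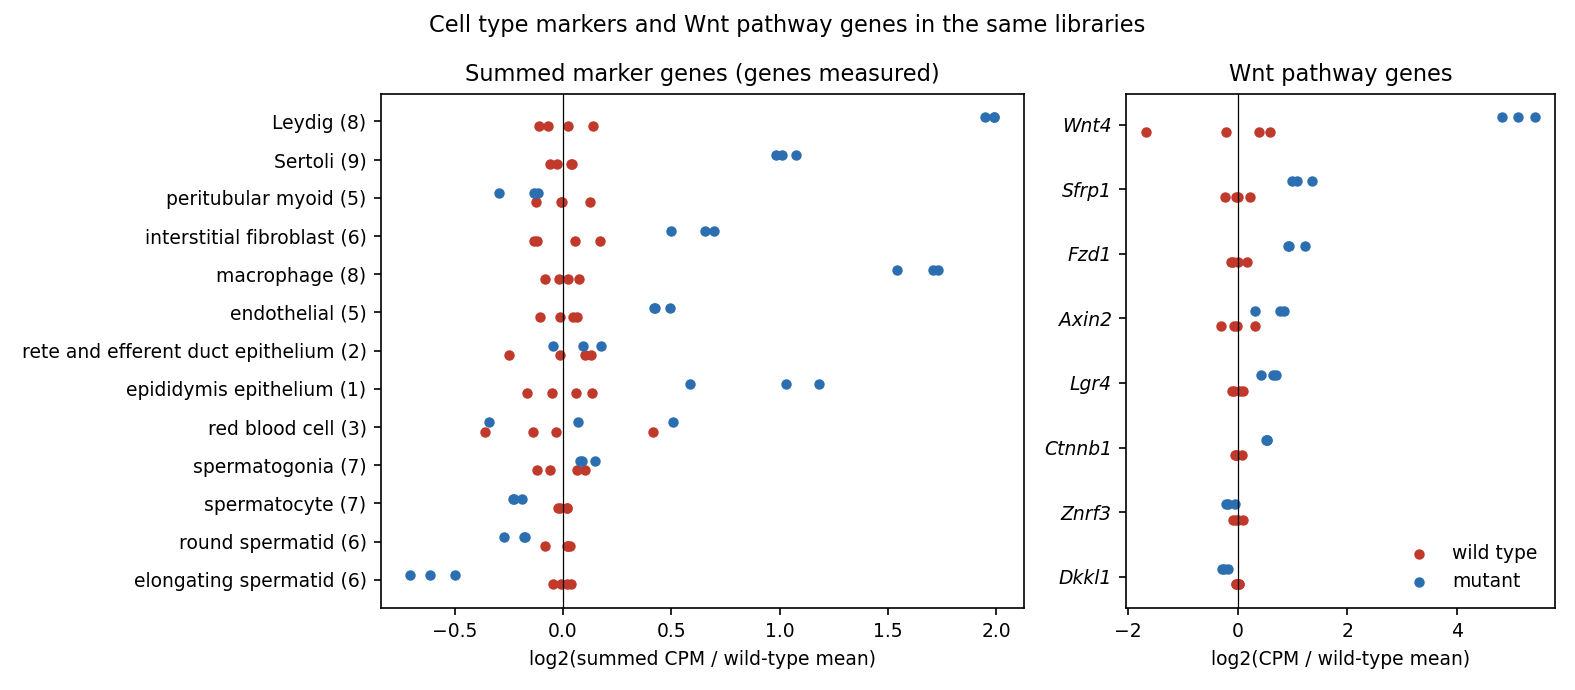
Left, log2 of the summed CPM of each cell type's markers over the wild-type mean, with the number of markers measured in brackets. Right, log2 of the CPM of the 8 Wnt pathway genes over the wild-type mean, on a wider axis. Points are libraries, red for wild type (n = 4) and blue for mutant (n = 3). Leydig, macrophage and Sertoli sums lie 1.98, 1.66 and 1.02 higher in mutants, elongating spermatid sums 0.60 lower, and Wnt4 lies farther from its wild-type mean than any sum.

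The genes whose profile over the 7 libraries was nearest to that of Wnt4 were found by Euclidean distance of log2(CPM + 0.1) from each gene's wild-type mean. They were Serpina3n (distance 0.975), Kcnk3 (1.68), Gm42047 (1.77), Lrg1 (1.96) and Lrrn1 (2.11). Serpina3n, a secreted protease inhibitor, went from 1.77 ± 0.288 to 57.2 ± 8.63 CPM. Lrg1, a secreted glycoprotein of the acute phase response, was at 2.66 ± 0.408 and 46.1 ± 2.56. Kcnk3, a potassium channel, was at 1.09 ± 0.559 and 18.6 ± 2.29, and Lrrn1, a leucine-rich repeat membrane protein, at 0.545 ± 0.117 and 8.47 ± 2.75. A low wild-type and a high mutant level is what this choice by distance to Wnt4 fixes, and Serpina3n, Kcnk3, Gm42047 and Lrrn1, like Wnt4, passed the minimum of 2.2 CPM only through the mutants. Pearson correlations of the 5 genes with Wnt4 over the 7 libraries were 0.969 to 0.992. Of all tested genes, 1908 had a correlation of at least 0.969.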

How the data were processed

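RNA-seq of whole testis was analysed in 7 libraries, 4 wild-type and 3 mutant. Per the labels and the study's methods, the authors used Trimmomatic for trimming, Subread for mapping to GRCm39 and featureCounts for counting, and dropped genes that did not reach 75 reads in at least 2 samples of either group. The deposited values are CPM that sum to 1000000 in each library, so no between-sample factor is in them. Every value is a whole multiple of its library's smallest step (tolerance 0.01 reads), which was taken as 1 read to give depths. The annotation release and the strand setting are not given in the sources used here.

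The values log2(CPM + 0.1) were fitted in limma 3.58.1 (R 4.3.3) by lmFit and eBayes, the latter with its trend option. The 17126 genes tested reached 2.2 CPM in at least 2 samples of either group. P-values were adjusted after Benjamini-Hochberg across every tested gene. Groups came from the sample labels, which do not say that samples of a group come from separate litters or batches, and p-values measure the spread between these samples. The fit was tested on simulated data with known changes.

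The Wnt genes, the wider pathway list and the marker lists were chosen with earlier results of these data known. The genes named are the 10 chosen genes, up to 4 called genes of the largest change in each role and among target genes, list genes needed to account for a count, the 5 genes nearest to Wnt4 in profile, Iqch and the gonadal genes of the closing section. Axin1, Gsk3b, Lrp5, Rnf43, Ulk4, the cell type markers and the neighbours of Wnt4 were named after their values were seen. Symbols, coordinates and canonical transcripts came from GENCODE M39, which holds 17045 of the 17127 genes, and window sequences from GRCm39. Canonical transcript lengths were chosen after the data were seen. Other computations used Python 3.11.15, NumPy 2.4.6, pandas 2.3.3 and SciPy 1.17.1, and figures matplotlib 3.10.9. The alternatives were a pseudocount of 1 or 0.01, no minimum or 5 CPM, size factors, sample weights, a replicate block, and fits that omitted each library in turn.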

Additional observations from a re-analysis of the deposited data

Results flagged for a closer look

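For 2 of the 51 named genes examined, 1 wild-type library stood apart from the other 3 by Dixon's test, in which the gap to the nearest library is divided by the range of the group. Chance flags about 1 in 20 groups. Fzd5 in wild-type libraries 1 to 4 was at 4.43, 3.61, 3.47 and 3.57 CPM, so that wild type 1 was high with a ratio of 0.851, and all mutants (7.21 to 8.42 CPM) still lay above it. Nr0b1 was at 18.1, 18.1, 18.5 and 24.6 CPM, so that wild type 4 was high with a ratio of 0.941, and all mutants (27.1 to 32.2 CPM) again lay above it.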

How the results depend on the processing

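Of the results given for single genes, Wnt4 with a pseudocount of 1 moved beyond the replicate spread, to a log2 fold change of 3.06 from 4.79, and with a pseudocount of 0.01 it was 5.27. Leaving out each library in turn gave 4.48 to 4.97 for Wnt4, -1.66 to -1.60 for Iqch, 6 to 7 called genes of the 8, 43 to 48 of the pathway list and 7237 to 8503 of all genes. With size factors Znrf3 became called lower (-0.27) and Axin2 lost its call (0.51), and 52 list genes were called. The replicate number as a block gave 6 called genes of the 8 (Axin2 lost, 0.64), 44 of the list and 7722 of all genes, against 7, 49 and 8640. Same-numbered libraries did not deviate together (correlations of 0.0261, 0.0094 and -0.0977), so the numbers were not taken as pairs. Count-based tests on reads recovered from the CPM, 2 in number, were planned and not run. No log2 fold change of the 8 genes or of Iqch changed sign in the 14 alternatives computed for it. Some medians near 0 did change sign with size factors. They went from 0.08 to -0.06 for target genes and from 0.06 to -0.08 for inhibitors. For transducers and destruction complex genes the median went from 0.12 to -0.02. Depth limits the wild-type level of Wnt4, which rests on 3 to 14 reads a library.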

Other observations

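Genes known for the ovarian or the testis side of gonad development were read beside Wnt4. Of 7 genes of the ovarian side 4 were measured, with 3 higher, where 36.3% of all tested genes were, and 1 not called. Of the 2 that reached 2.2 CPM in 2 or more libraries of each group, 1 was higher (Nr0b1). Fst, which encodes the activin antagonist follistatin, was at 0.868, 0.932, 1 and 0.905 CPM in wild-type libraries and 5.32, 6.83 and 5.38 in mutants (log2 fold change 2.52, SE 0.16, FDR 5.4e-08). Runx1, a transcription factor of the fetal supporting cells, went from 0.846 ± 0.402 to 2.81 ± 0.329 CPM (1.70, FDR 1.6e-04). Fst and Runx1 reached that level only in mutants, so they entered the test through the group in which they are high. Nr0b1, a nuclear receptor of the gonad and adrenal, went from 19.8 ± 3.18 to 29.8 ± 2.61 CPM (0.60, FDR 3.3e-04), and Irx5 was at 8.28 and 7.55 CPM and not called. Foxl2, Bmp2 and Irx3 are not analysed here.

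Of 8 genes of the testis side 7 were measured, and all 7 were called higher, 4 of them also with size factors. Among all tested genes 36.3% were called higher, and 27.0% with size factors. Ptgds, which makes prostaglandin D2, went from 194, 94.5, 185 and 128 CPM to 1202, 1233 and 1321 (3.11, FDR 3.4e-08). Nr5a1, a master factor of steroid-producing and Sertoli cells, went from 38.6 ± 4.27 to 121 ± 10.3 CPM (1.65, FDR 9.1e-09). Sox8 (0.63, FDR 9.7e-06) and Dhh (0.60, FDR 2.0e-04) rose by less. Sox9 (0.36), Dmrt1 (0.22) and Amh (0.53) were not called with size factors (0.22, 0.08 and 0.40), and without mutant 2 they were at 0.28, 0.21 and 0.44 and not called (FDR 0.0113, 0.0247 and 0.0471). Dmrt1 and Amh also lost their calls without mutant 1 or 4 or wild type 2, 3 or 4 (0.19 to 0.23 for Dmrt1 and 0.42 to 0.59 for Amh). The Sertoli and Leydig marker sums given above were also higher in mutants. The part of cell type differences was not tested.

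Around Wnt4 on chromosome 4, the nearest measured genes were Cdc42, 20 kb after it (log2 fold change 0.80, FDR 1.5e-07), 1700013G24Rik, 152 kb after it (-0.22, FDR 0.0041), and the lncRNAs Gm13003 and Gm13001, 110 and 155 kb before it (-0.25 and -0.08, not called). None had a change near that of Wnt4.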
